A study of Mus musculus with 30 samples.

Results

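The genes described here carry, sense and remove retinoic acid in mouse embryonic stem (ES) cells that become neural progenitors: the binding proteins Crabp1 and Crabp2, the receptors Rara, Rarb and Rarg, the degrading enzyme Cyp26a1 and the receptor cofactor Nrip1. They were followed through every probe set (a group of short probes on an Affymetrix chip that reads one transcript) annotated to 1 of these 7 genes alone. There were 13 such probe sets among the 36701 that were no controls, and all 13 passed the filter on low signals, as did 25690 in all. Rara and Nrip1 had 3 probe sets each, Crabp2 and Rarb had 2 each, and Crabp1, Cyp26a1 and Rarg had 1 each.

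All cells came from a single 129-derived ES line with a Sox1-GFP reporter, which makes early neuroectoderm cells green. The 3 samples called ES 1, ES 2 and ES 3 were undifferentiated cells sorted as E-cadherin-positive. The other 7 samples were cells of serum-free floating aggregates (SFEB culture, in a medium with serum replacement), 1 sample for each group. They were day 1 aggregates with no sort given, day 2 E-cadherin-negative cells, day 2 E-cadherin-positive cells, day 3 Sox1-negative cells, and Sox1-positive cells of day 3, day 4 and day 5. Sox1-positive cells of days 3 to 5 (3 samples) and the 4 aggregate samples not sorted as Sox1-positive, here the other aggregates, were each compared with the ES cells and with each other. The labels name no added retinoic acid in any group.

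Retinoic acid is made from vitamin A and acts inside cells. Cytoplasmic binding proteins hold it or hand it on, receptors of the RAR family bind it and switch genes on together with RXR partners, and enzymes of the CYP26 family destroy it. In the embryo it patterns the hindbrain and spinal cord, where Hox genes are among its best known targets, and added retinoic acid drives ES cells towards neural fates. Rarb and Cyp26a1 are themselves classical targets of the receptors. Nrip1 encodes a corepressor that binds ligand-bound nuclear receptors.

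The deposited values were linear intensities, with a median per array from 176 to 202 on chip A, 231 to 277 on chip B and 195 to 220 on chip C. An actin control's 3' to 5' signal ratio, a sign of RNA integrity, was 1.64 to 1.85 in ES 3, 1.23 to 1.44 in the day 2 E-cadherin-negative and day 5 samples, and 0.939 to 1.25 in the others. All 7 ES cell markers were measured, and their summed intensity was 39963 to 47302 in ES cells, 33522 to 39008 in 3 of the other aggregates, 14083 in the day 2 E-cadherin-negative sample and 1680 to 8707 in Sox1-positive cells. The 7 neural progenitor markers summed to 7727 to 8973 in ES cells, 7950 to 11488 in the other aggregates and 14580 to 16356 in Sox1-positive cells. Sox2, the largest part of that sum in ES cells, read 5333 to 6956 there and 4128 to 5386 in Sox1-positive cells. The other markers of that list read higher in each Sox1-positive sample than in any ES sample. The sort gene Sox1 read 138 to 173 in ES cells, 152 to 253 in the other aggregates and 252 to 309.7 in Sox1-positive cells. Cdh1, which encodes E-cadherin, read 565 in the day 2 E-cadherin-negative sample and 572 in the E-cadherin-positive one, so the RNA did not separate that sort. In day 5 cells the endoderm and floor plate gene Foxa2 reached 1315, against 28.1 to 55.3 elsewhere, and the neural crest gene Ednrb reached 9061, against 13.8 to 3568 elsewhere. The other endoderm markers read 43.2 to 297 on day 5 and 47.7 to 502 in ES cells. Of the other neural crest markers Sox10, Foxd3, Erbb3 and Snai2 read 675, 36.5, 87.6 and 275 on day 5, below their ES ranges. Tfap2a read 1734, within its ES range of 1356 to 1744. Sums of 5 of 7 mesoderm markers with a probe set were 359 to 478 in ES cells, 666 to 699 in the other aggregates and 422 to 523 in Sox1-positive cells, and those of 7 fibroblast markers 1949 to 2606, 1436 to 2886 and 1767 to 2233. Sums of 7 endoderm markers were 723 to 1123 in ES cells, 901 to 1220 in the other aggregates and 898 to 2132 in Sox1-positive cells, those of 6 neural crest markers 3367 to 4045, 3386 to 5075 and 4685 to 11869, and those of 7 neuron markers 7354 to 7808, 5649 to 11121 and 7203 to 14981. No marker was at 0 in any sample.

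RNA of Crabp1 was higher in Sox1-positive cells than in ES cells, and that of Rarg was lower. Crabp2 RNA was also higher by its probe set of highest signal, while its other probe set did not follow. By limma on log2 of the intensity plus 16, with Benjamini-Hochberg adjustment over all probe sets and an adjusted p under 0.05 as the call, 4 of the 13 probe sets rose from ES to Sox1-positive cells and 1 fell. Among all probe sets tested 5.71% rose and 4.84% fell. One of the rises was that of Cyp26a1, whose probe set entered the test only through its Sox1-positive values and was not called without the filter on low signals (adjusted p = 0.0707), so the counts with it are a description. Counted with the 1 probe set of highest signal for each gene, Crabp1, Crabp2, Cyp26a1 and Nrip1 rose, Rarg fell, and Rarb and Rara did not pass (all genes tested: 6.4% rose and 6.17% fell). Without ES 2, or without ES 3 and day 5 together, 3 of the 13 were called, while the calls over all 25690 probe sets went from 2710 to 1233 and 1055. The median difference was 1.09 on the log2 scale over the 13 probe sets and -0.00 over all tested. The members were chosen with earlier results of these data known, so their counts and median are a description. The p-values measure only the spread between these samples. That of the ES samples may be technical, since nothing says they were separate cultures, and that of Sox1-positive cells holds the change over days.

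**Figure D1:**
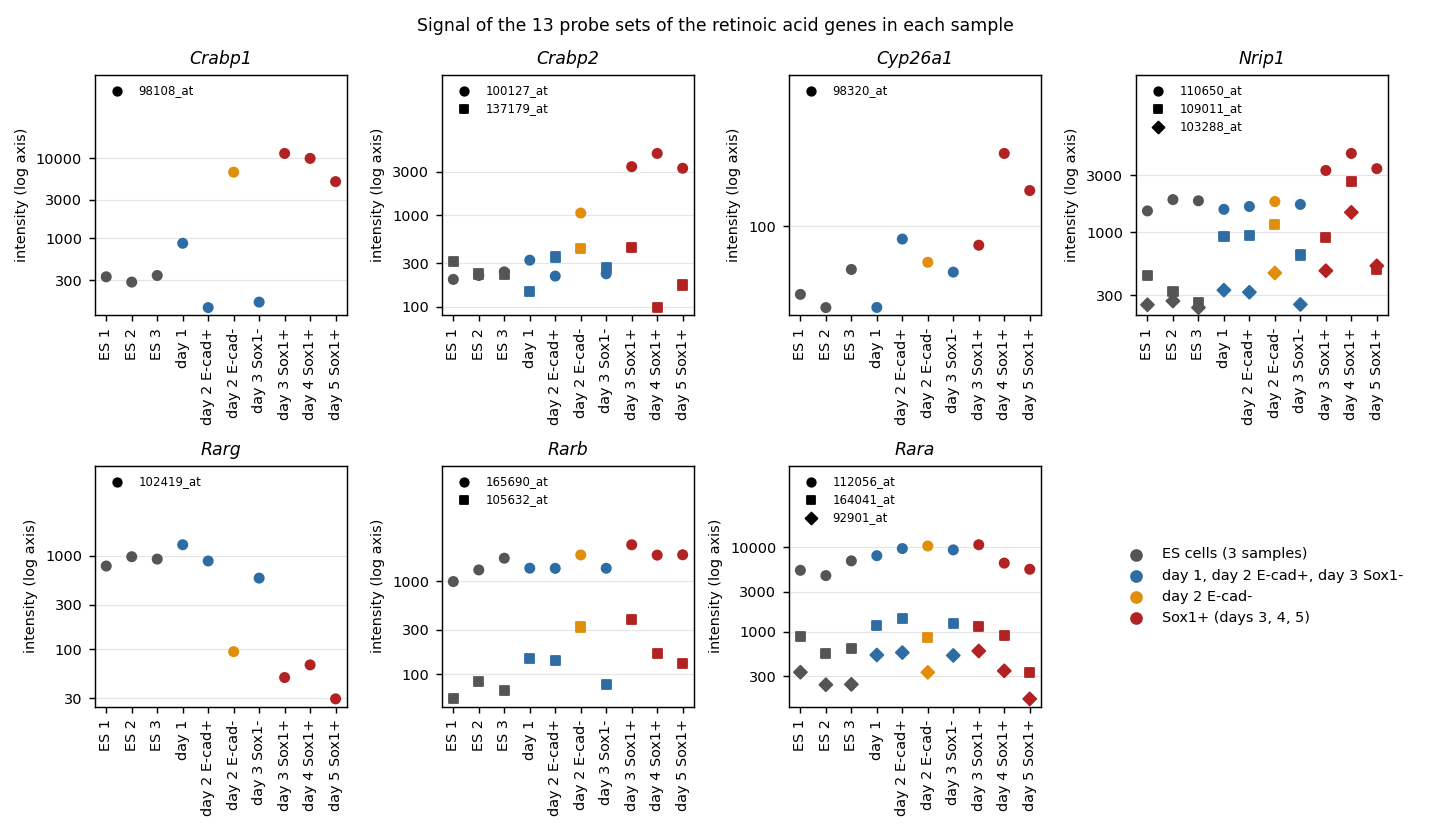
Intensity of each of the 13 probe sets (log axis) in each of the 10 samples, 1 panel per gene, with 1 marker shape per probe set and colour for the kind of sample. Crabp1 and Crabp2 (100127_at) lie far above the ES samples in day 3, 4 and 5 Sox1-positive cells and in day 2 E-cadherin-negative cells, where Rarg is low.

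Crabp1 encodes a cytoplasmic protein that binds retinoic acid tightly and is a marker of hindbrain and neural crest cells in the embryo. Its probe set 98108_at read 329, 283 and 342 in ES 1, ES 2 and ES 3. It read 862 in day 1 aggregates, 6659 in day 2 E-cadherin-negative cells, 136 in day 2 E-cadherin-positive cells and 159 in day 3 Sox1-negative cells. Its Sox1-positive levels were 11405, 9898 and 5075 on days 3, 4 and 5. The Sox1-positive samples and the day 2 E-cadherin-negative sample stood far above the ES range, and the E-cadherin-positive and Sox1-negative samples lay below it. From ES cells (318 ± 31.1, SD, n = 3) to Sox1-positive cells (8793 ± 3307, SD, n = 3) the mean intensity rose 27.7-fold, a log2 difference of 4.64 ± 0.30 (SE; limma adjusted p = 0.000194). In bulk samples like these, fewer cells of a type and less RNA per cell cannot be told apart.

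Crabp2 encodes the relative that carries retinoic acid to its receptors in the nucleus. Probe set 100127_at read 199, 219 and 240.1 in ES 1, ES 2 and ES 3, and 322 in day 1 aggregates. The day 2 samples read 1058 (E-cadherin-negative) and 216 (E-cadherin-positive), and day 3 Sox1-negative cells 229. Sox1-positive cells gave 3404, 4749 and 3270.5 on days 3, 4 and 5. Here too the day 2 E-cadherin-negative sample stood above all ES samples, but below every Sox1-positive one. The mean rose from 219 ± 20.7 in ES cells to 3808 ± 818 in Sox1-positive cells (SD, n = 3 each), by 4.01 ± 0.20 on the log2 scale (limma adjusted p = 0.000119). A second Crabp2 probe set, 137179_at, did not follow: it read 225 to 315 in ES cells, 146 to 432 in the other aggregates and 448, 97.6 and 172 in Sox1-positive cells of days 3, 4 and 5. Its difference was -0.32 ± 0.51 (adjusted p = 0.766), and its log2 values correlated with those of 100127_at at r = -0.23 over the 10 samples, so the Crabp2 results are those of 100127_at.

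Without ES 3 and day 5, the samples with the highest actin ratio in their groups, the differences were 5.05 for Crabp1, 4.17 for Crabp2 (100127_at) and -3.57 for Rarg, against 4.64, 4.01 and -3.83 with all samples, with limma adjusted p-values of 0.00161, 0.00328 and 0.00398. The calls of these 3 probe sets held under all 16 alternatives, with adjusted p-values of at most 0.00286, 0.00328 and 0.00398. The ES cell marker sum fell and the neural progenitor sum rose between the same groups, though Sox2 within the latter did not rise. The part of these sums in the differences was not tested.

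Rarg encodes the receptor RAR gamma, which in the early embryo is known from the primitive streak and the tail end. Its probe set 102419_at read 773, 972 and 917 in ES 1, ES 2 and ES 3. It read 1305 in day 1 aggregates, 876 in day 2 E-cadherin-positive cells and 574 in day 3 Sox1-negative cells, against 94.3 in day 2 E-cadherin-negative cells. Sox1-positive cells had 49.9, 68.1 and 29.5 on days 3, 4 and 5. Thus 6 of the 10 samples read 574 to 1305 and 4 read 29.5 to 94.3. The 4 were the day 2 E-cadherin-negative sample and the Sox1-positive ones. The mean fell from 888 ± 103 in ES cells to 49.2 ± 19.3 in Sox1-positive cells (SD, n = 3 each), an 18.0-fold lower intensity and a log2 difference of -3.83 ± 0.25 (limma adjusted p = 0.000194). The low values are near the bottom of the chip's range, where the log2 scale with 16 added understates a fall.

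Rarb encodes RAR beta, the receptor whose own gene responds to retinoic acid. Its stronger probe set, 165690_at, read 994, 1326 and 1772.5 in ES 1, ES 2 and ES 3, and it read 1379.6 to 1921 in the other aggregates. Sox1-positive cells gave 2473, 1913 and 1929.7 on days 3, 4 and 5. All 3 lay above the ES samples, yet the difference of 0.65 ± 0.30 did not pass (limma adjusted p = 0.241). The weaker probe set, 105632_at, read 54.5, 83.2 and 67.0 in ES 1, ES 2 and ES 3. It read 148 in day 1 aggregates, 324 in day 2 E-cadherin-negative cells, 141 in day 2 E-cadherin-positive cells and 78.5 in day 3 Sox1-negative cells. Its Sox1-positive values were 392, 167 and 132 on days 3, 4 and 5, so that the highest levels were those of day 2 E-cadherin-negative and day 3 Sox1-positive cells. The difference from ES cells was 1.42 ± 0.37, with an adjusted p of 0.0502 that just missed the threshold. Both probe sets correlated at r = 0.76 over the 10 samples. In the alternative fit of the mean over a gene's probe sets, Rarb passed with a difference of 1.03 (adjusted p = 0.04998).

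Rara encodes RAR alpha, the broadly present receptor. Its 3 probe sets showed no call in any comparison. Probe set 112056_at read 4648 to 6947 in ES cells and 7994, 10416, 9714 and 9373 in day 1, day 2 E-cadherin-negative, day 2 E-cadherin-positive and day 3 Sox1-negative samples. It then read 10777, 6532 and 5521 in Sox1-positive cells of days 3, 4 and 5. The other two, 164041_at and 92901_at, had their lowest values of all samples on day 5 (329 and 161), below the ES ranges of 557 to 892 and 237 to 334. From ES to Sox1-positive cells the differences were 0.39 ± 0.29, 0.05 ± 0.44 and 0.26 ± 0.41 (limma adjusted p = 0.480, 0.965 and 0.758). The first lay above the ES range in all 4 other aggregates, but the difference there, 0.74 ± 0.20, did not pass either (adjusted p = 0.294). The 3 probe sets correlated with each other at r = 0.69, 0.74 and 0.97.

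Cyp26a1 encodes a cytochrome P450 that oxidises retinoic acid and so limits its reach. Its probe set 98320_at was weak: 45.0, 38.6 and 60.3 in ES 1, ES 2 and ES 3, and 38.7, 65.6, 86.0 and 58.4 in day 1, day 2 E-cadherin-negative, day 2 E-cadherin-positive and day 3 Sox1-negative samples. Sox1-positive cells gave 80.1, 234 and 152 on days 3, 4 and 5. Days 4 and 5 stood above every other sample, while day 3 lay below the day 2 E-cadherin-positive sample. The mean rose from 48.0 ± 11.1 to 155 ± 77.1 (SD, n = 3 each), a difference of 1.33 ± 0.34 (limma adjusted p = 0.0420). This probe set passed the filter (mean intensity of at least 78.6 on chip A) only through the Sox1-positive samples, since its mean was 85.8 over all samples and 56.1 without them. The call ended under 8 of 15 alternatives, with adjusted p-values up to 0.148, among them leaving out any ES sample or day 4 or day 5.

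The promoters of Rarb and Cyp26a1 are the places where receptors of this family are classically known to act, through a direct repeat of a hexamer with a short spacer. RefSeq promoter windows of 250 bases before to 50 bases after a transcript start (GRCm38.p6) were at hand for 6 of the 7 genes, 11 windows in all, with none for Crabp2. They were searched on both strands for any tandem pair of the hexamers AGGTCA or AGTTCA or GGGTCA or GGTTCA, with 1, 2 or 5 bases between them. Of the 11 windows 2 held one, those of Rarb and Cyp26a1, both with a spacer of 5. Each is shown for 30 bases on the gene's own strand, 5′ to 3′, with both hexamers in capitals:
Rarb: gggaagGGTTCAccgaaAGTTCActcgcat
Cyp26a1: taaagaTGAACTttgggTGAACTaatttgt
The Rarb stretch is chr14:16575506-16575535, on the minus strand, with its repeat at -53 to -37 from the transcript start. The Cyp26a1 stretch is chr19:37697770-37697799, on the plus strand, with its repeat at -32 to -16. The Cyp26a1 repeat lies on the opposite strand, so its hexamers read TGAACT here, the reverse complement of AGTTCA. Among all 32851 windows of the same length in the table, 0.0974% held such a repeat with a spacer of 5, 0.268% with 2 and 0.222% with 1, and 0.588% held any. Of the 49 other pathway genes with a window, 1 (Bco1, which encodes a carotenoid-cleaving enzyme) held a repeat. A match is a description of the letters and not a measured binding site. Both promoters were known for such a repeat beforehand, so the count among the 11 windows is a description too.

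Nrip1 rose by its strongest probe set. Probe set 110650_at read 1511, 1876 and 1834 in ES 1, ES 2 and ES 3 and 1557 to 1808 in the other aggregates. Sox1-positive cells gave 3281, 4543 and 3395 on days 3, 4 and 5. The Sox1-positive samples stood above all the 7 other samples, which spanned 1511 to 1876. From ES cells the difference was 1.09 ± 0.21 (limma adjusted p = 0.0170), and it lost the call without ES 2 (0.0559), day 4 (0.0636), or ES 3 and day 5 together (0.0801). The second probe set, 109011_at, read 259 to 440 in ES cells, 649 to 1157 in the other aggregates and 904, 2645 and 493 in Sox1-positive cells, a difference of 1.62 ± 0.55 (adjusted p = 0.107). The third, 103288_at, read 237 to 269 in ES cells, 252 to 460.2 in the other aggregates and 481, 1469.7 and 528 in Sox1-positive cells, a difference of 1.46 ± 0.39 (adjusted p = 0.0503). Day 4 was the highest sample in all 3, and they correlated at r = 0.48 to 0.86 over the 10 samples.

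**Figure D2:**
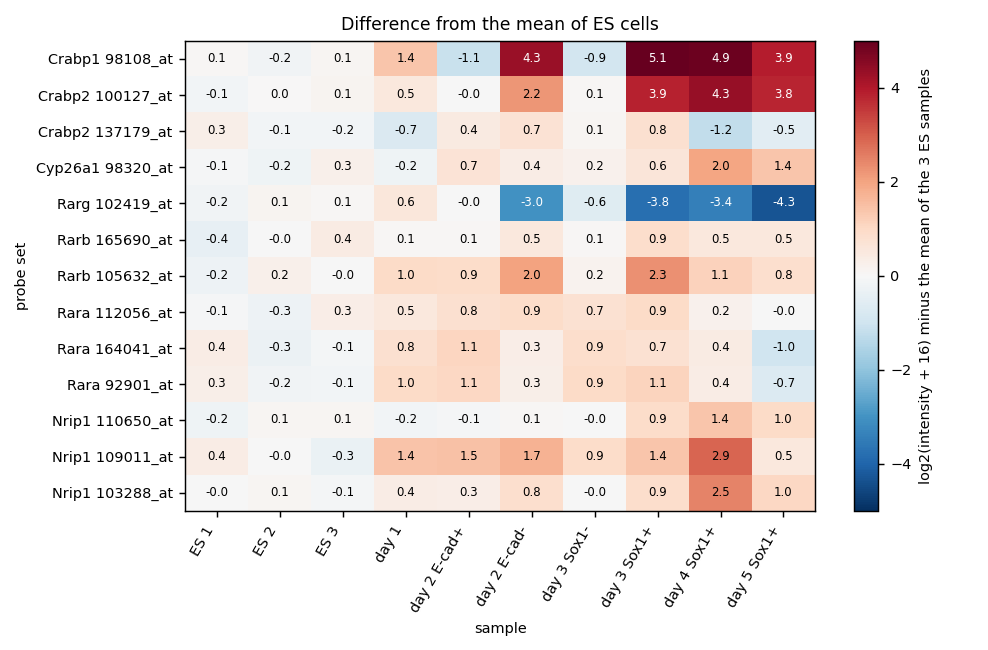
Difference of each sample from the mean of the 3 ES samples on the log2(intensity + 16) scale, with 1 row per probe set and 1 column per sample; red is higher and blue lower. The day 2 E-cadherin-negative column shows 4.3 for Crabp1 and -3.0 for Rarg, next to E-cadherin-positive values of -1.1 and -0.0.

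The sorts of one day differed by 1 or more on the log2 scale in Crabp1, Crabp2 (100127_at), Rarg and Rarb (105632_at), both on day 2 and on day 3. With a pseudocount of 64 the Rarb difference of day 2 was 0.92, under that limit. On day 2 Crabp1 was 49.0-fold higher in E-cadherin-negative than in E-cadherin-positive cells (5.46 on the log2 scale), Crabp2 (100127_at) 4.90-fold higher (2.21), Rarb (105632_at) higher by 1.12 and Rarg lower by a difference of -3.02. On day 3 Crabp1 was 71.8-fold higher in Sox1-positive than in Sox1-negative cells (6.03), Crabp2 (100127_at) 14.9-fold higher (3.80), Rarb (105632_at) higher by 2.11 and Rarg lower by a difference of -3.16. Each side was 1 sample, so these differences have no test. In each sort 3 of the 13 probe sets were higher and 1 lower by 1 or more, while 13.6% of all probe sets differed that much in either direction on day 2 and 15.4% on day 3. Between pairs of ES samples 8.19% to 13.9% of all probe sets and 0 of the 13 did. The E-cadherin-negative sample also had the lower ES marker sum (14083 against 39008) and the higher sum of 7 neuron markers (11121 against 6613). On day 3 Sox1-positive cells had an ES marker sum of 8707 against 33721 in Sox1-negative cells, a neural progenitor sum of 15512 against 9792 and a neuron sum of 7811 against 5843. The part of these markers in both contrasts was not tested.

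**Figure D3:**
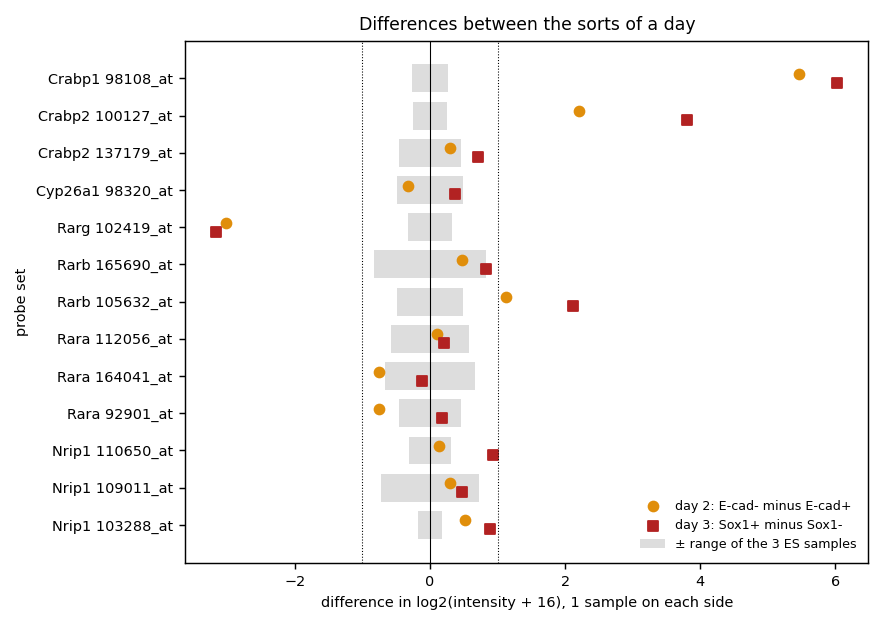
Differences in log2(intensity + 16) between the sorts of day 2 (orange circles, E-cadherin-negative minus positive) and of day 3 (red squares, Sox1-positive minus negative) for each probe set, with grey bars for plus and minus the range of the 3 ES samples and dotted lines at 1 and -1. Crabp1, Crabp2 (100127_at), Rarg and Rarb (105632_at) lie past the dotted lines on both days.

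Each lone sample was also tested against the ES cells by limma with all 8 groups in the model, where the ES samples alone give the spread. Each such p-value sets 1 library against a spread that may be technical, and assumes that the library varies like the ES samples. In the day 2 E-cadherin-negative sample Crabp1 differed by 4.33 ± 0.27 (adjusted p = 0.0105), and was the only call among the 13, where 0.0272% of all probe sets were called. That call was lost without ES 2 (difference 4.25, adjusted p = 0.191) or without the filter on low signals (0.0583). Rarg and Crabp2 (100127_at) had differences of -3.03 (0.0506) and 2.19 (0.0518) there, and Rarb (105632_at) one of 2.03 (0.102). The neighbouring groups showed no call: in day 1, day 2 E-cadherin-positive and day 3 Sox1-negative samples 0 of the 13 and 0% of all probe sets passed, although 4, 5 and 3 of the 13, and 1625, 2087 and 1709 of all, had an unadjusted limma p under 0.05. Crabp1 differed from ES cells by 1.40 on day 1 (adjusted p = 0.504), by -1.13 in E-cadherin-positive cells (0.401) and by -0.93 in Sox1-negative cells (0.544).

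Among the lone Sox1-positive samples, day 3 had 3 calls above and 1 below ES cells (1.47% of all probe sets called), day 4 had 5 above and 1 below (1.87%) and day 5 had 2 above and 1 below (4.22%). Crabp1, Crabp2 (100127_at) and Rarg were called on each of the 3 days, Crabp1 with differences of 5.10, 4.90 and 3.94 and Rarg with -3.77, -3.42 and -4.30. Rarb (105632_at) was called in the day 3 sample, with 2.29 (adjusted p = 0.0375), and on days 4 and 5 its differences were 1.13 (0.153) and 0.83 (0.230). Cyp26a1 differed by 1.98 (0.0341) in the day 4 sample, next to 0.60 (0.400) the day before and 1.40 (0.0555) the day after, and the day 4 call was lost without the filter that it passed only through these samples (0.0853). Both weaker Nrip1 probe sets were called in the day 4 sample, 109011_at with 2.93 (0.0274) and 103288_at with 2.47 (0.0140). Without ES 2, which leaves 2 ES samples to give the spread, 0 of the 13 and none of all the probe sets were called on day 3 or day 4, while the Crabp1 differences were 5.02 and 4.82 there. No slope on day passed among the Sox1-positive samples (0 of 13, and 0% of all, by limma), although 5 of the 13 and 2105 of all had an unadjusted p under 0.05. The slopes per day of the Rara probe sets were -0.48, -0.88 and -0.89, that of Crabp1 was -0.58 and that of Rarb (105632_at) -0.73. The lowest adjusted p among the 13 was 0.323, for Rara 92901_at.

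Pooled, the 4 other aggregates differed from ES cells in 0 of the 13 probe sets by limma, where 0.0662% of all were called (5 of the 13 and 2640 of all had an unadjusted p under 0.05). The largest difference was that of Nrip1 109011_at, 1.39 ± 0.25 (adjusted p = 0.139), and Crabp1 had 0.92 ± 1.10 (0.808), with 6659 in day 2 E-cadherin-negative cells and 136 to 862 in the other 3 samples. Sox1-positive cells were higher than these aggregates in 2 of the 13 and lower in none by the same test (all probe sets: 0.58% higher and 0.864% lower; by gene 0.611% and 1.14%). They were Crabp2 (100127_at), with a difference of 3.31 ± 0.49 (adjusted p = 0.0266), and Nrip1 (110650_at), with 1.13 ± 0.18 (0.0368). Crabp1 had 3.73 ± 1.15 (0.121) and Rarg -3.06 ± 0.72 (0.0694). Without the day 2 E-cadherin-negative sample Crabp1 passed too, at 4.86 (0.00421), and Rarg at -3.81 (0.00115). That sample was the nearest of these aggregates to the Sox1-positive ones in both genes, so leaving it out widens these differences by itself. Without any 1 of the other 6 samples 0 of the 13 passed, and 4 to 83 of all probe sets did. The comparisons with ES cells share the ES samples, and this one shares its samples with both, so they are not independent.

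The rest of the pathway moved in part. Of 69 further genes of transport, synthesis, degradation, partner receptors, cofactors and targets, 58 had a probe set and 44 were tested. From ES to Sox1-positive cells 11 of them rose, 2 fell and 31 did not pass (limma, adjusted over all probe sets; 6.4% of all genes tested rose and 6.17% fell), with a median of 0.25 against -0.01 over all genes tested. The list was made with earlier results of these data known, so its counts and median are a description. Without ES 2 the counts were 5 and 2, and without day 4, without day 5, or without ES 3 and day 5 they were 6 and 2.

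Of the genes for transport and storage only Fabp5, which encodes a fatty acid-binding protein that also carries retinoic acid, was tested: its mean intensity was 672 ± 130 for ES cells and 855 ± 45.7 for the Sox1-positive samples (SD, n = 3 each; log2 difference 0.36, adjusted p = 0.314). None of the 9 tested genes of synthesis and retinaldehyde reduction passed, and their median was 0.01. One of them, Rdh14 (-0.55, limma adjusted p = 0.661), met the filter on low signals only through the ES samples. Rdh10, which makes retinaldehyde, had the largest positive difference of them, 0.54 ± 0.26 (0.255). Cyp26b1 and Cyp26c1, the other degrading enzymes, had no probe set.

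Among 3 partner receptors tested Rxra rose. Its probe set 112678_at read 352, 433 and 549.96 in ES cells, 333 to 673 in the other aggregates and 1223, 937 and 1057 in Sox1-positive cells, a difference of 1.25 ± 0.22 (limma adjusted p = 0.0128). Of 11 corepressors and coactivators Hdac3, a histone deacetylase of corepressor complexes, rose by 0.92 ± 0.19 (0.0190) and Kat2b, a histone acetyltransferase, fell. Kat2b read 1191, 945 and 1332 in ES cells, 548 to 1743 in the other aggregates and 200.2, 259 and 313 in Sox1-positive cells, a difference of -2.11 ± 0.22 (0.00147), and it was also lower than in the other aggregates (-1.97, adjusted p = 0.0399). Against ES cells Rxra lost its call without ES 2, and Hdac3 without ES 2, day 4 or day 5, while Kat2b kept it with any 1 sample left out.

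Of 20 known targets tested 9 rose, 1 fell and 10 did not pass, beside the 6.4% and 6.17% of all genes. Their list was also made with earlier results known, so this count is a description. The rises were Nr2f1 and Nr2f2, which encode the COUP-TF nuclear receptors, the hindbrain Hox genes Hoxa2, Hoxa3, Hoxb1, Hoxb2 and Hoxb4, the Hox cofactor gene Meis2 and the hindbrain factor gene Egr2. The Hox and Meis genes did not rise as a class. Hoxb3 (0.40, limma adjusted p = 0.353), Hoxa4 (0.06, 0.916), Hoxb5 (0.55, 0.528) and Meis1 (-0.11, 0.882) did not pass. Against the other aggregates Nr2f1 alone of the 20 was higher and Stra8 alone lower, and 18 did not pass (limma, beside 0.611% and 1.14% of all genes). The differences of Nr2f1 and Stra8 there were 5.30 (adjusted p = 0.0231) and -2.21 (0.0450). These calls were not checked with samples left out or without the filter. Egr2 read 567 in day 2 E-cadherin-positive and 560 in day 3 Sox1-negative cells, against 318 to 669 in Sox1-positive cells. Nr2f1 (102715_at) read 8.39, 20.7 and 39.2 in ES cells, 6.89 to 132 in the other aggregates and 852, 1539.9 and 4099 in Sox1-positive cells, a difference of 5.59 ± 0.54 (limma adjusted p = 0.00107). It passed the filter only through the Sox1-positive samples, since its mean without them was 35.1 against a minimum of 78.6. None of the other 19 targets passed in that way. The Nr2f1 call against ES cells was kept without the filter, and its calls in both comparisons are a description. Hoxa2 (171063_at) read 23.4, 249 and 329 in ES cells and 2115, 1825 and 2632 in Sox1-positive cells, a difference of 3.83 ± 0.78 (0.0244). Stra8, a germ cell gene first found as a retinoic acid response gene, fell: 474, 255 and 300.2 in ES cells became 53.9, 12.5 and 75.8 in Sox1-positive cells (-2.62 ± 0.43, adjusted p = 0.00846). In day 2 E-cadherin-negative cells 0 of the 44 genes passed against ES cells (0.0272% of all probe sets did), and the median of the 20 targets was 1.10 against 0.04 over all genes. In that sample Hoxb4 (132496_f_at) read 7490.4 and Hoxb2 (106927_at) 4382, against 402 to 1146 and 551 to 926 in ES cells. The Sox1-positive samples read 1734 to 3561 for Hoxb4 and 4604 to 10435 for Hoxb2. From ES to Sox1-positive cells only Hoxb1, Hoxb2, Meis2, Nr2f1 and Stra8 of these targets kept the call under each leaving out of samples.

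**Figure D4:**
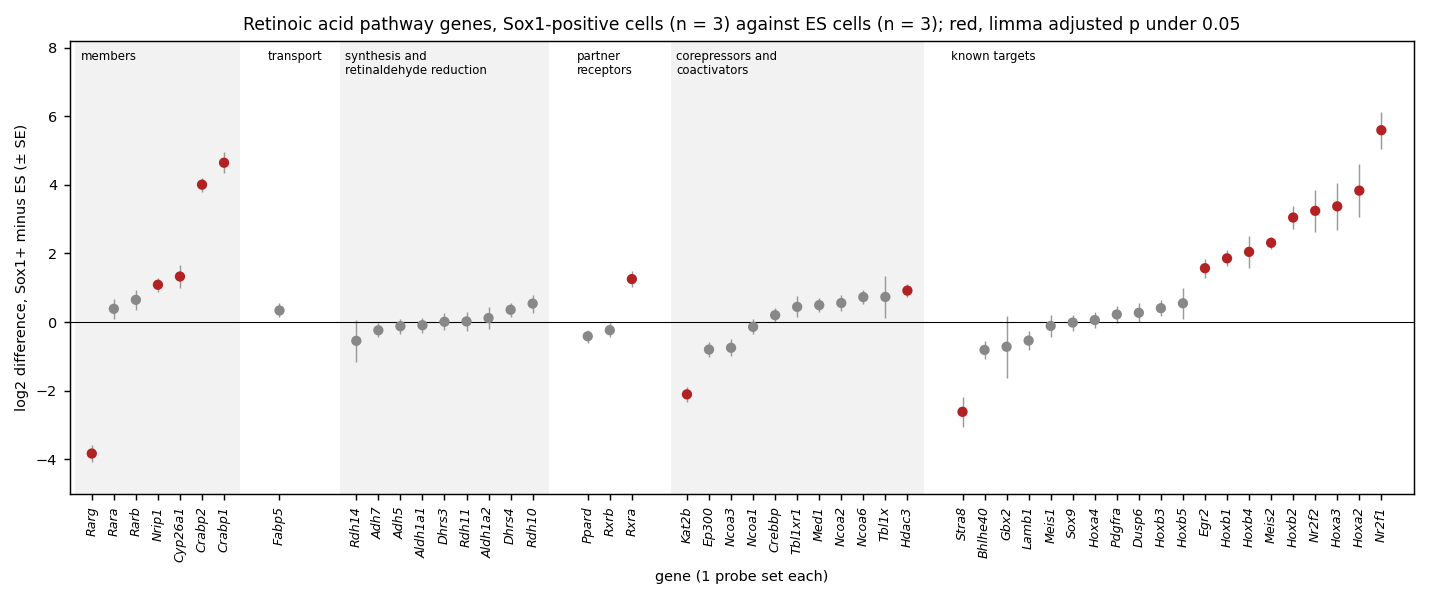
Log2 difference between Sox1-positive cells (n = 3) and ES cells (n = 3), with its SE, for the 7 genes (left) and the 44 other pathway genes tested, grouped by role, 1 probe set per gene; red marks a limma adjusted p under 0.05. Of the 20 known targets 9 are red and higher and 1 is red and lower, and none of the 9 genes of synthesis is red.

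The members differed in how alike their patterns were over the 10 samples. Crabp1 and Crabp2 had a Pearson r of 0.94 on log2 values, Crabp2 and Nrip1 one of 0.93, Rarg and Crabp2 one of -0.95 and Rarg and Crabp1 one of -0.90, while Rara stayed between -0.16 and 0.41 with the others. The samples share their sort and day, so such values describe these libraries alone. The same measure was taken against 7689 genes that ranged by at least 1 on the log2 scale, and the 3 most alike are named for each. For Crabp1 they were Cdh6, Zfp579 and Zic1 (0.98, 0.98 and 0.97), and for Crabp2 Ubtd2, Sfrp1 and Hmga2 (0.99, 0.98 and 0.98). Sfrp1, a secreted Wnt inhibitor, read 488 to 753 in ES cells, 1747 in day 2 E-cadherin-negative cells and 5291 to 6327 in Sox1-positive cells. The genes most like Rarg were Notum, Dhx16 and Fam25c (each 0.99), and Notum, a secreted Wnt inhibitor too, read 3676 to 4387 in ES cells, 1574 in day 2 E-cadherin-negative cells and 842 to 1388 in Sox1-positive cells. For Nrip1 they were Dap, Wls and Frzb (0.97, 0.97 and 0.96), for Rarb Gpr153, Cyth3 and Pja1 (0.97, 0.96 and 0.95), for Cyp26a1 Apba2, Kctd2 and Armc10 (0.94, 0.93 and 0.93) and for Rara Ptk7, Armcx6 and Car12 (0.91, 0.89 and 0.88).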

How the data were processed

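RNA of 10 samples was hybridised to 3 Affymetrix U74 version 2 chips (A, B and C), 30 arrays. The deposited value was 1 linear intensity per probe set and array. The authors' software is not given in the sources used here, but the arrays were already scaled: the 2% trimmed mean of every array lay between 500.1 and 500.3. The precision is limited by the number of arrays. Of 36899 probe sets, 198 controls were left out, and the platform annotation gave a single gene for 29131, more than 1 for 724 and no gene for 6846. Values were used as deposited, as log2(intensity + 16), a scale that understates changes of low signals. Probe sets with a mean intensity at or above the 30th percentile of their chip (78.6, 117 and 102) were tested.

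Tests were limma 3.58.1 in R 4.3.3 (lmFit and eBayes per chip, Benjamini-Hochberg adjustment over the 3 chips, two-sided), with the code tested on simulated data. Sorts of one day were compared without a test, counting differences of 1 or more. The probe set of highest mean log2 value stood for a gene (12934 genes). In pathway lists, up to 2 called rises and 2 called falls per role were named. Fabp5, Rdh10, Rdh14, Hoxb2, Hoxb4 and the named rises beyond 2 were chosen after their values were seen. So were the Hox and Meis genes named as not passing, and Sfrp1 and Notum for description among the genes of like pattern. The members and lists were chosen with earlier results of these data known. Alternatives were quantile or 75th percentile scaling, pseudocounts of 1 and 64, no filter or the 60th percentile, a variance trend, adjustment within chips, a slope on day, the mean over a gene's probe sets and samples left out. Promoter windows were RefSeq's (GRCm38.p6). Figures used Python 3.11.15 and matplotlib 3.10.9.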

Additional observations from a re-analysis of the deposited data

Results flagged for a closer look

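One probe set each of Crabp2 and Nrip1 differed between the aggregate groups by a test of the difference itself: Sox1-positive cells (3 samples) against the 4 other aggregates, which amounts to comparing both groups' changes from the same ES cells. The log2 difference of Crabp2 (100127_at) was 3.31 (limma adjusted p = 0.0266), with all 3 Sox1-positive samples (3270.5 to 4749) above all 4 others (216 to 1058). That of Nrip1 (110650_at) was 1.13 (adjusted p = 0.0368), with all 3 (3281 to 4543) above all 4 others (1557 to 1808). The other probe sets of these genes did not pass: Crabp2 137179_at had -0.45 (0.693), Nrip1 109011_at 0.23 (0.842) and Nrip1 103288_at 1.08 (0.157). The means over each gene's probe sets did not pass either (limma adjusted p = 0.0822 for Crabp2 and 0.198 for Nrip1). Leaving out any 1 of 6 of the 7 samples, all but day 2 E-cadherin-negative, ended both calls. Day and sort differ together between these groups except on day 3.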

How the results depend on the processing

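From ES to Sox1-positive cells 5 of 13 probe sets were called, and 3 without ES 2 or without ES 3 and day 5 together. Against the other aggregates 2 were called, 1 without a filter, and 0 to 4 with a sample left out; by gene 2 became 0 with the mean over a gene's probe sets. The 1 call of day 2 E-cadherin-negative cells became 3 with a pseudocount of 64, the 60th percentile filter, a variance trend, adjustment within chips or without ES 1, and 0 without a filter or without ES 2. The 4 calls of day 3 and 6 of day 4 Sox1-positive cells became 0 without ES 2, and the 3 of day 5 became 5 without ES 1. Calls over all probe sets changed with the setting too: from ES to Sox1-positive cells they were 2710, and 1055 to 3234 under the alternatives. The changed counts of the 13 are therefore no result about the members alone. Some uncalled differences changed sign, and stayed uncalled, when a sample was left out. From ES to Sox1-positive cells these were Crabp2 137179_at (-0.88 to 0.14), Rara 164041_at (-0.30 to 0.58) and Rara 92901_at (-0.16 to 0.73). In the other aggregates against ES cells they were Crabp1 (-0.22 to 1.60), Crabp2 137179_at (-0.069 to 0.42), Rarb 165690_at (-0.030 to 0.38) and Nrip1 110650_at (-0.14 to 0.011, and 0.012 with quantile normalization). Between both aggregate groups they were Crabp2 137179_at (-1.01 to 0.0051), Rarb 105632_at (-0.041 to 0.73) and Nrip1 109011_at (-0.42 to 0.77). The causes were not tested. Of 773 single values under an alternative, 689 were rated as unchanged. Among them were uncalled differences that stayed uncalled, and differences between the sorts of a day, which have no call. Cyp26a1 was not tested with the 60th percentile filter, which removes it. A lone sample left in a group is assumed to vary like the others. With 1 sample in 7 of 8 groups, precision is low, and weak signals such as those of Cyp26a1 limit it further.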
